A study of Mus musculus with 32 samples.

Results

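The strand asymmetry of cisplatin damage and of its excision repair was examined gene by gene in mouse kidney. In each library the reads on the transcribed strand (TS), the template that RNA polymerase follows, were set against the reads on the non-transcribed strand (NTS) of the same gene. The members are the 4 kidney libraries of DNA, of 32 libraries in the study, 2 of Damage-seq and 2 of XR-seq. Of 25058 genes counted in all files, 16502 could be compared, namely those under 100 kb long with 10 or more GG dinucleotides on a strand and 20 or more reads summed over the libraries of an assay. The kidneys were taken from wild-type C57BL/6J female mice, 6 or 7 months old, that had received a single intraperitoneal injection of cisplatin at 10 mg per kg at ZT1 (Zeitgeber time, in hours after lights on) and were killed at ZT5. The protocol therefore gives 4 h of treatment, whereas the sample labels state 2 h. The same strain, sex, age, dose and time apply to the liver, lung and spleen libraries that serve for comparison, 2 per organ and assay. Kidney RNA-seq, with 2 cisplatin and 2 saline libraries, gave the expression level. Damage-seq and XR-seq of saline-injected mice were not analysed here. The organ was homogenised whole, so each value is an average over all cell types of the kidney. The labels do not name the animals behind the libraries, and in the protocol the pellet left by the XR-seq extraction was kept for Damage-seq, so that libraries of both assays may share tissue. The p-values below measure the spread between these libraries.

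Cisplatin crosslinks neighbouring purines of one DNA strand, mostly the paired guanines of a GG dinucleotide, and the adduct is removed by nucleotide excision repair. In global repair the lesion is found by XPC and its partners on either strand of the genome. In transcription-coupled repair the signal is an RNA polymerase stalled at the lesion, which by its nature lies on the TS of a gene in use, and CSB (gene Ercc6), CSA (Ercc8) and UVSSA bring in the same excision machinery. XR-seq sequences the short oligomers that are cut out around the adduct and held by TFIIH, so its reads count repair. Damage-seq maps adducts that are still in the DNA, so its reads count what formation has added and repair has taken away. The kidney accumulates cisplatin in its tubules, which is the site of the dose-limiting toxicity of the drug.

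The number of target sites differs between strands, so each strand's reads were divided by its GG dinucleotides. The windows below, 100 bases of intron from 4 genes that stand for the extremes described later, show what was counted. All 4 genes lie on the minus strand of GRCm38 (mm10), and each window is written 5′ to 3′ along the NTS. Capitals mark CC, which is GG on the TS, and the gg in small letters is GG on the NTS.
Cdh16, kidney cadherin, intron, chr8:104613310-104613409: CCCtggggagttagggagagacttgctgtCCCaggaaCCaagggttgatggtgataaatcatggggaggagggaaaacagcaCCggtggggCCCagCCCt
Eef1d, translation elongation factor subunit, intron, chr15:75909107-75909206: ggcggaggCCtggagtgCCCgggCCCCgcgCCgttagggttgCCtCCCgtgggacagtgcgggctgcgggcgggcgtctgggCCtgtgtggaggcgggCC
Atp6v0c, proton pump subunit, intron, chr17:24168097-24168196: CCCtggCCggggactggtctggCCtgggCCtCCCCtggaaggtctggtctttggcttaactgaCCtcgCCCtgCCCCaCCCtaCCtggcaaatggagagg
Muc6, gastric mucin, intron, chr7:141644404-141644503: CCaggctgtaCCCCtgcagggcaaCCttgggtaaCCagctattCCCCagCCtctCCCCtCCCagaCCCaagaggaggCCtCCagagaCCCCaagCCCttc
The window of Muc6 holds 24 GG on the TS and 7 on the NTS, and the whole gene holds 2090 and 1494. The window of Eef1d leans the other way, with 12 GG on the TS and 22 on the NTS, and the gene holds 1162 and 1295. Cdh16 has 1694 GG on the TS and 1697 on the NTS, so here the division changes nothing, and Atp6v0c has 550 and 466. Among genes with an RPKM under 0.1, no gene on the opposite strand and at least 50 reads, the read ratio of the strands followed the GG ratio across genes in Damage-seq (Pearson r = 0.36 in library 1 over 1345 genes, 0.38 in library 2 over 1255 genes). In XR-seq it did not do so visibly, with r = 0.071 over 645 genes and 0.0038 over 800 genes.

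Reads on genes numbered 6441367 and 5731390 in the kidney Damage-seq libraries and 18406613 and 27921971 in the XR-seq libraries. The 2 XR-seq libraries differed in their low counts. In library 1 the NTS of 9948 genes had 0 reads, only 777 genes had 1 to 15 reads, and the most frequent count above 0 was 32. In library 2 there were 3836 genes at 0 and 4131 at 1 to 15, and the most frequent count was 1. Of 2639 genes with 20 to 39 NTS reads in library 2, 1273 (48.2%) had 0 in library 1. The XR-seq libraries lung 1 and spleen 1 had most frequent counts of 15 and 6, whereas all 8 Damage-seq libraries had 1. What made these gaps was not tested, and results that rest on library 1 are given with and without it. Of the 25 proximal tubule genes chosen as markers of the kidney, 24 had an RPKM of at least 5 in each cisplatin RNA-seq library (summed RPKM 28440 and 23700), against a summed RPKM of 154 and 177 for 14 hepatocyte genes and 16.8 and 36.6 for 10 lung genes. In such bulk samples fewer cells of a type and less RNA per cell cannot be told apart.

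Both assays were asymmetric, in opposite directions and by different amounts. In the median gene the damage that remained on the TS was 0.782 times that on the NTS in library 1 and 0.857 times in library 2. Repair on the TS was 5.85 times that on the NTS in XR-seq library 1 and 5.23 times in library 2. On the log2 scale these medians were −0.35 and −0.22 for damage and 2.55 and 2.39 for repair, so the strands of the median gene differed far more in what had been cut out than in what was left. Damage was lower on the TS in 72.8% and 70.3% of genes, and repair was higher on the TS in 79.4% and 81.8%. By edgeR's quasi-likelihood test over all 16502 genes (Benjamini-Hochberg adjusted p under 0.05), the TS carried less damage than the NTS in 3706 genes (22.5%) and more in 64 (0.388%). Repair was higher on the TS in 9618 genes (58.3%) and lower in 1021 (6.19%). Levels were expressed as reads on 1 strand per 1000000 library reads on genes and per 1000 GG of that strand. At the median gene the damage level was 7.86 (TS) and 10.5 (NTS) in library 1, and 8.17 (TS) and 9.496 (NTS) in library 2. The number of genes with less damage on the TS rests on Damage-seq library 1: with library 2 as the only kidney library it was 99, and with library 1 alone 2814.

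The median strand ratio of kidney was set beside that of the other organs. The 6 libraries of liver, lung and spleen had Damage-seq medians of −0.53 to −0.30 and XR-seq medians of 1.97 to 3.24 on the log2 scale, ranges that overlap those of kidney in both assays. The mean of the kidney libraries minus that of the others was 0.10 in Damage-seq (exact two-sided permutation test over 28 ways, p = 0.25, adjusted over both assays 0.5) and −0.21 in XR-seq (p = 0.607, adjusted 0.607). With 2 libraries against 6 these tests leave a difference in either direction possible.

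**Figure D1:**
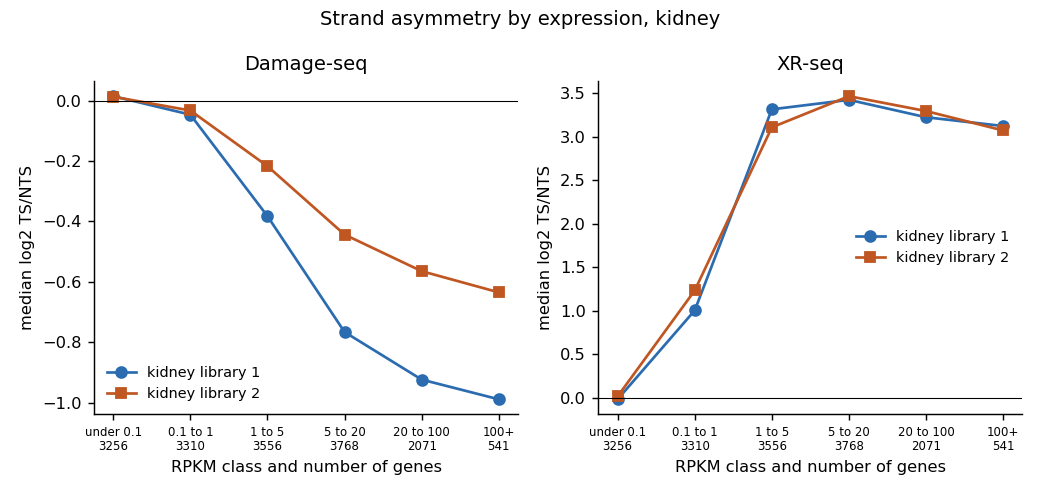
Median log2 TS/NTS per GG (y) of genes in 6 classes of RPKM (x, with the number of genes under each class) in the 2 kidney libraries of Damage-seq (left) and XR-seq (right). The damage ratio keeps falling from class to class while the repair ratio is at 3 or more from an RPKM of 1 upwards.

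The asymmetry followed expression in both assays, with a different course. In 3256 genes with an RPKM under 0.1 the median log2 TS/NTS was 0.01 in both Damage-seq libraries and −0.02 and 0.02 in the XR-seq libraries, so that the medians of silent genes lay near 0 in both assays. The repair ratio was higher in every class above: the mean of the library medians was 1.12 at an RPKM of 0.1 to 1, 3.22 at 1 to 5, 3.45 at 5 to 20, 3.26 at 20 to 100 and 3.10 at 100 and above. The damage ratio in the same 5 classes was −0.04, −0.30, −0.60, −0.74 and −0.81. Genes with an RPKM of 5 to 20 thus had the highest repair ratio and the most expressed genes the lowest damage ratio. Both strands took part in the damage course: from the lowest to the highest class the median level of Damage-seq library 1 went from 9.11 to 6.24 on the TS and from 8.97 to 12.8 on the NTS, and that of library 2 from 8.66 to 6.97 and from 8.53 to 10.8. These levels are shares of a library, so a rise on one strand of some genes lowers the share of all others. In XR-seq library 2 both strands rose, the TS from 0.858 to 47.0 and the NTS from 0.839 to 4.36. The share of genes called with less damage on the TS was 0.461% in the lowest class, 48.6% at 20 to 100 and 44.4% in the 541 genes at 100 and above, and the share called with more repair on the TS went from 6.05% to a maximum of 88.8% at 5 to 20 and 79.3% in the highest class. The 2 saline RNA-seq libraries gave nearly the same classes, with −0.77 and 3.08 in the 488 genes at 100 and above. Across all genes the rank correlation with log2 RPKM was −0.58 for damage and 0.49 for repair. These are descriptions over genes, which share libraries and are not replicates.

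The ratios also differed with gene length, chromosome and overlap. Among genes with an RPKM of at least 5 the repair ratio was 2.63 (log2, mean of library medians) in 913 genes under 5 kb, 3.20 at 5 to 20 kb, 3.62 at 20 to 50 kb and 3.73 in 816 genes of 50 to 100 kb, while the damage ratio stayed between −0.69 and −0.59. Short genes hold few reads, and 9.75% of those under 5 kb were called in Damage-seq against 68.4% of those of 50 to 100 kb. Genes of the X chromosome with an RPKM of 1 or more had damage ratios nearer to 0 than autosomal genes of the same class, as means of the library medians −0.15 against −0.30 at 1 to 5, −0.26 against −0.61 at 5 to 20, −0.45 against −0.75 at 20 to 100 and −0.38 against −0.82 at 100 and above. At 0.1 to 1 the order was the other way, −0.10 against −0.04. At an RPKM of 5 to 20 the damage ratio was −0.34 and −0.19 in the libraries for 100 genes of the X chromosome and −0.78 and −0.45 for 3668 autosomal genes, and 12% against 43.9% were called. The NTS level of damage was lower on the X chromosome, 8.96 and 8.53 against 11.3 and 10.0, and so was the TS level of repair, 16.5 and 19.0 against 39.97 and 44.2. The repair ratio was 3.47 on the X chromosome and 3.45 on autosomes at 5 to 20, and higher on the X chromosome at 0.1 to 1 (1.42 against 1.11), 1 to 5 (3.54 against 3.20), 20 to 100 (3.41 against 3.26) and 100 and above (4.27 in 21 genes against 3.06). In females one X chromosome is inactive, and reads of both copies are counted together. The part of this in the result was not tested. Less damage on the TS was called in 22.5% of all genes and in 43.1% of those with an RPKM of 5 to 20. From a list of genes that escape X inactivation, which also holds Xist, 6 could be compared, with a median RPKM of 12.7. Of these 6, 4 (66.7%) were so called, and the medians of the 6 were −0.86 and −0.56 in the libraries. Among them was the histone demethylase gene Kdm5c (66 TS and 167 NTS reads in library 1, 67 and 117 in library 2, log2 TS/NTS −0.93 ± 0.23 SE, edgeR adjusted p = 0.00124). Its call was lost without Damage-seq library 1. A gene on the opposite strand, which was annotated for 6718 of the genes compared, went with a lower repair ratio (1.96 against 2.84 in the 9784 genes without one) and with a like damage ratio (−0.27 against −0.30).

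**Figure D2:**
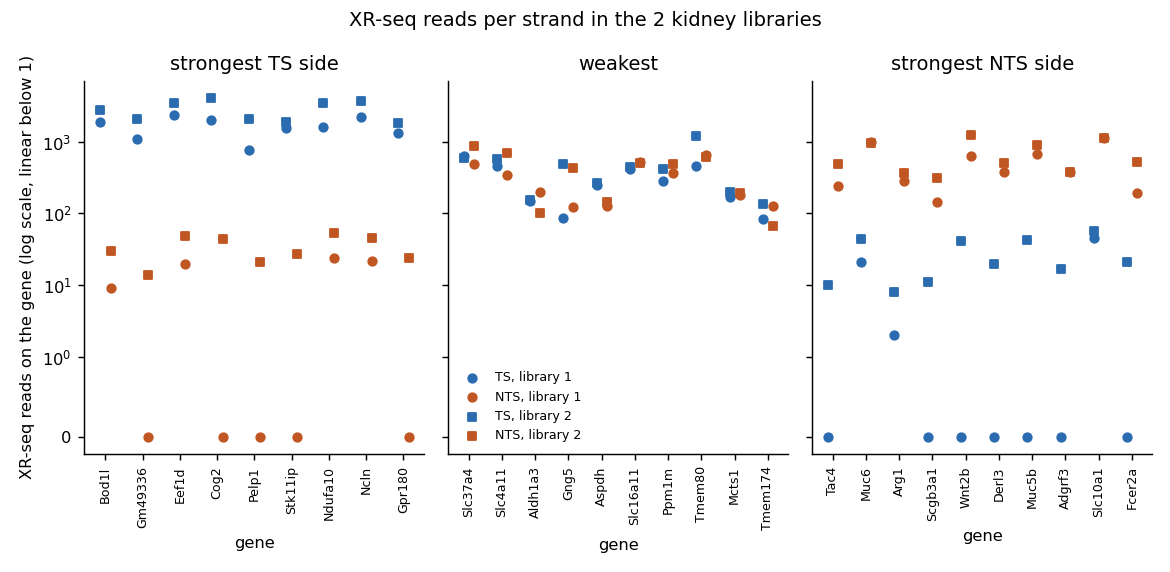
XR-seq reads (y, log scale, linear below 1) on the TS (blue) and NTS (orange) of single genes (x) in kidney library 1 (circles) and library 2 (squares): 9 genes with the strongest repair on the TS, the 10 expressed genes nearest to equality and the 10 with the strongest repair on the NTS. In the left panel TS reads lie far above NTS reads in every gene, in the middle panel both strands lie close together, and in the right panel NTS reads lie above TS reads.

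The 9 genes described here for the strongest repair asymmetry had between 775 and 4055 TS reads and between 0 and 53 NTS reads in each XR-seq library. Genes were ranked by the 95% limit of the log2 ratio nearest to 0 among the 5393 protein-coding genes with repair called on the TS side, no gene on the opposite strand and at least 10 reads on each strand. The gene Bod1l (chr5:41787538-41844315, minus strand), whose product protects replication forks, led with 1852 TS and 9 NTS reads in library 1 and 2752 and 30 in library 2. Its log2 TS/NTS was 7.10 ± 0.38 (SE, edgeR adjusted p = 3.2e-06). Eef1d (chr15:75894205-75909556), the elongation factor subunit shown above, had 2353 and 20 reads in library 1 and 3435 and 49 in library 2, a ratio of 6.63 ± 0.35 (edgeR adjusted p = 3.18e-06). For Ndufa10, a subunit of respiratory complex I, the counts were 1579 and 24, and 3423 and 53, a ratio of 6.18 ± 0.28. The strands of these 3 genes were far apart in both libraries. The other 6 were Gm49336, Cog2 of the Golgi tethering complex, the coregulator gene Pelp1, Stk11ip, which binds the kinase LKB1, Ncln of the endoplasmic reticulum and Gpr180. Of the 9, Gm49336, Cog2, Pelp1, Stk11ip and Gpr180 had 0 NTS reads in library 1 and 14 to 44 in library 2. Since 48.2% of genes with 20 to 39 NTS reads in library 2 had 0 in library 1, a 0 there sets no counting limit, and their ratios of 7.58 to 8.32 rest on library 2 for the size. The 9 genes had a median RPKM of 8.09 and a median length of 26100 bp. All 9 had fewer damage reads per GG on the TS by the fitted ratio, with a median log2 of −0.79, and the difference was called in 7. In Damage-seq library 2 alone the ratio was 0.087 for Ndufa10 and 0.11 for Stk11ip, and the fitted ratio of Ndufa10 changed its sign without library 1.

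The genes with the weakest repair asymmetry were expressed genes with a fitted ratio near 0, in most of them with libraries that leaned to opposite strands. The choice by a ratio nearest to 0 favours such opposite leanings. These genes were taken from 3290 protein-coding genes with an RPKM of at least 5, no opposite gene and at least 200 reads in each XR-seq library. Slc37a4 (chr9:44396852-44402968), the glucose-6-phosphate transporter of gluconeogenesis, had an RPKM of 106 and 629 TS against 485 NTS reads in library 1 and 582 against 876 in library 2. Its log2 TS/NTS was 0.47 in library 1 and −0.50 in library 2, and −0.02 ± 0.31 in the fit (edgeR adjusted p = 0.97). Aspdh, an aspartate dehydrogenase, had 250 and 128 reads, then 269 and 145, and after division by GG a ratio of 0.08 in library 1, 0.01 in library 2 and 0.05 ± 0.47 in the fit. Slc4a11, a transporter of the borate family, had 454 and 348, then 575 and 694, with ratios of 0.35 in library 1 and −0.30 in library 2 and 0.02 ± 0.27 in the fit. In Slc37a4 and Slc4a11 the strand with more reads per GG was the TS in library 1 and the NTS in library 2, whereas in Aspdh both libraries were near equality. The opposite change, from the NTS in library 1 to the TS in library 2, was seen in Tmem174 (−0.90 and 0.72), Tmem80 (−0.68 and 0.84), Aldh1a3 (−0.55 and 0.48) and Gng5 (−0.31 and 0.37). The others were Aldh1a3 of retinoic acid synthesis, the G protein subunit gene Gng5, the monocarboxylate transporter Slc16a11, the phosphatase Ppm1m, Tmem80, the translation factor Mcts1 and Tmem174, with fitted ratios of −0.09 to 0.09. The 10 genes were short, with a median of 5942 bp, and their damage ratios had a median of −0.14 with edgeR adjusted p of at least 0.0521. Their standard errors in XR-seq were 0.25 to 1.39, so equality of the strands was not shown.

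Repair was higher on the NTS in 1021 genes (6.19%), 882 of them with an RPKM under 1. Of the 1021, 721 (70.6%) had an annotated gene on the opposite strand and 543 (53.2%) had a gene with an RPKM of at least 5 on the opposite strand within 10 kb. The same shares were 36.9% and 15.4% of the 5684 genes with an RPKM under 1 that were not so called. Where genes overlap on opposite strands the NTS of one is the TS of the other, and reads cannot be given to either. Of the 300 called genes with no opposite gene, 218 were protein-coding with at least 10 reads on each strand, and the 10 strongest of these follow. Muc6 (chr7:141633456-141655319), the gastric mucin shown above, had 21 TS and 984 NTS reads in library 1 and 44 and 969 in library 2, a log2 ratio of −5.44 ± 0.27 (SE, edgeR adjusted p = 3.02e-06). Slc10a1, the bile acid carrier of liver, had 45 and 1135, then 57 and 1106, a ratio of −4.56 ± 0.36. Arg1, the liver arginase, had 2 and 284, then 8 and 368, a ratio of −5.74 ± 0.54. In all 3 the NTS exceeded the TS many times over in both libraries. Tac4, Scgb3a1, Wnt2b, Derl3, Muc5b, Adgrf3 and Fcer2a complete the 10, each with 0 TS reads in library 1 and 10 to 43 in library 2. Their RPKM lay between 0.0038 and 0.55, and their damage ratios had a median of 0.18 with edgeR adjusted p of at least 0.0885.

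The 10 genes with the strongest damage asymmetry had an RPKM of 1.06 to 83.3. Of 2095 protein-coding genes with damage called lower on the TS and no opposite gene, Atp6v0c (chr17:24163866-24169702), a membrane subunit of the vacuolar proton pump that acidifies the urine, ranked first. It had 13 TS and 78 NTS reads in library 1 and 13 and 83 in library 2, a log2 ratio of −2.87 ± 0.39 (SE, edgeR adjusted p = 1.92e-08). Klf9, a transcription factor induced by glucocorticoids, had 43 and 178, then 60 and 162, a ratio of −1.68 ± 0.24 (edgeR adjusted p = 7.42e-08). Fam53c had 30 and 141, then 42 and 123, a ratio of −1.82 ± 0.27 (edgeR adjusted p = 2.56e-07). In each of these the NTS held more reads than the TS in both libraries. The other 7 of the 10 were Zmym5, the glycolytic enzyme gene Pgam1, Oaz1, the inhibitor of ornithine decarboxylase, Tatdn2, the asparaginyl-tRNA synthetase Nars, Mrps17 of the mitochondrial ribosome and Dpm1 of protein glycosylation, with ratios of −2.30 to −1.74. The median RPKM of the 10 was 27.1. All 10 were also called with more repair on the TS, at a median log2 of 3.40, against 3.26 for all genes with an RPKM of 20 to 100. Without library 1, Pgam1, Oaz1, Tatdn2, Nars, Mrps17 and Dpm1 lost their call.

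The weakest damage asymmetry among 1940 expressed genes with at least 100 damage reads in each library was that of Dkk2, a Wnt antagonist, with 194 TS and 197 NTS reads in library 1 and 190 and 188 in library 2 (log2 −0.02 and 0.02, fitted 0.00 ± 0.14 SE, edgeR adjusted p = 0.996). Ltbp4, a protein of the elastic matrix, had 353 and 305, then 286 and 231, and ratios per GG of −0.05 and 0.05, fitted 0.00 ± 0.14. Steap3, a metalloreductase, had 334 and 379, then 282 and 283, with −0.10 and 0.08, fitted −0.01 ± 0.12. The 95% interval was −0.29 to 0.28 for Dkk2, −0.28 to 0.28 for Ltbp4 and −0.26 to 0.24 for Steap3, so small differences in either direction remain possible. Slc43a3, Ctss (cathepsin S of macrophages), Ehd3 of glomerular endothelium, Tmed7, Pnrc1 and Phf23 were among them too. In all 9 genes the ratios of the libraries had opposite signs, which the choice by a fitted ratio nearest to 0 favours. The RPKM of these 9 genes lay between 5.23 and 65.7. All 9 had repair called higher on the TS, with a median log2 of 3.44. That median is the fitted ratio of Ctss, which had 46 TS and 0 NTS reads in XR-seq library 1 and a ratio of 1.58 in library 2. Dkk2 and Slc43a3 also had 0 NTS reads in library 1. In XR-seq library 2 alone the ratios were 1.35 (Pnrc1) to 4.04 (Tmed7). They were 1.85 (Pgam1) to 6.08 (Zmym5) in the 10 genes with the strongest damage asymmetry. Near-equal and very unequal damage were thus both found together with more repair on the TS. A likeness of the repair ratios of both sets was not shown.

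More damage on the TS was rare. Of the 64 genes called, 50 had a gene on the opposite strand, and 12 met the conditions for naming. Cdk8 (chr5:146231230-146302874), the kinase of the Mediator complex, was the best measured of them, with 463 TS and 356 NTS reads in library 1 and 691 and 448 in library 2, a log2 ratio of 0.68 ± 0.12 (SE, edgeR adjusted p = 6.95e-06). The chemokine gene Ccl5 ranked first with few reads, 27 and 9, then 18 and 8, and a ratio of 1.55 ± 0.56. Gpat2, a mitochondrial acyltransferase of testis, had 91 and 56, then 56 and 46, a ratio of 0.87 ± 0.28, and Plekhb1 had 112 and 74, then 79 and 68, a ratio of 0.66 ± 0.24. All 4 had more reads on the TS in both libraries. Ccl5, Gpat2 and Plekhb1 had more repair on the NTS (log2 −7.01, −3.31 and −1.58), whereas Cdk8 had repair on the TS (3.07 ± 0.33). Cd209a, Ankk1, Urad, Fbxw27, Cyp4f40 and Dsg1a, with an RPKM of 0 to 1.27, were not called in XR-seq. Without Damage-seq library 1 all of the 10 but Cdk8 lost their call in Damage-seq, and without library 2 all but Cdk8, Urad and Dsg1a did.

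**Figure D3:**
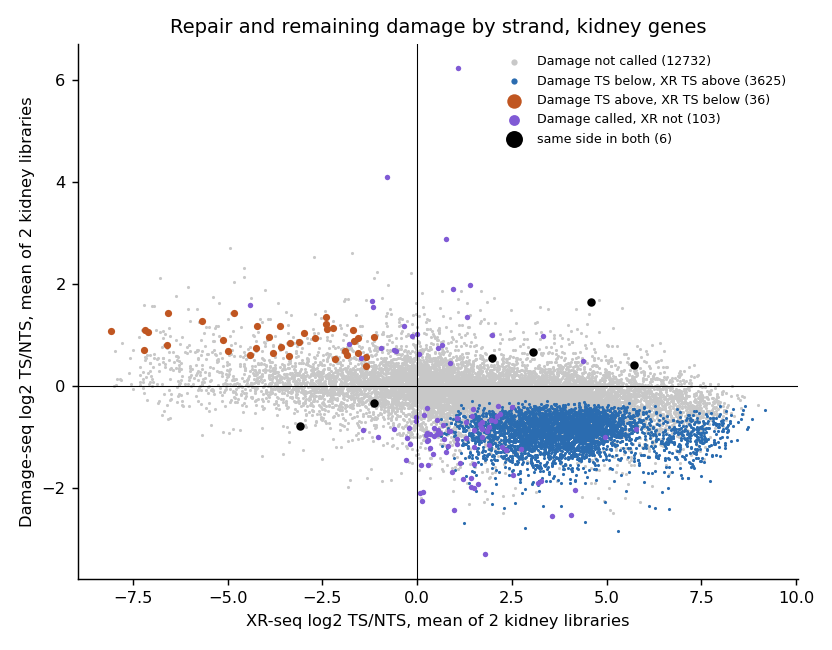
Each point is 1 of 16502 genes, with its XR-seq log2 TS/NTS (x) and its Damage-seq log2 TS/NTS (y), both the mean of 2 kidney libraries; colours give the calls in both assays. The 3625 genes with more repair and less damage on the TS fill the lower right, 36 genes with the reverse lie at the upper left, and 6 genes called on the same side in both assays are drawn in black.

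Most genes called in both assays were called in opposite directions. Of 3706 genes with less damage on the TS, 3625 (21.97% of all tested) had more repair on the TS, 79 had no call in XR-seq and 2 had more repair on the NTS. Of 64 genes with more damage on the TS, 36 had more repair on the NTS, 24 had no call and 4 had more repair on the TS. In the other direction, 5989 genes with more repair on the TS and 983 with more repair on the NTS had no call in Damage-seq. A call was absent from both assays in 5760 genes. The median gene had 52 TS and 75 NTS reads in Damage-seq library 1 and 50 and 63 in library 2. In XR-seq it had 315 and 50, then 497.5 and 78. A missing call in Damage-seq therefore does not show equal damage on both strands. Without Damage-seq library 1 the genes called in both assays as less damaged and more repaired on the TS numbered 96. Only the direction of the ratios, with no call, was the same in all 4 libraries, damage below and repair above on the TS, for 8447 genes (51.2%), for 5216 (81.8%) of the 6380 genes with an RPKM of at least 5 and for 317 (9.74%) of those under 0.1.

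The sizes of the ratios were less closely related than their directions. Across all genes the rank correlation of the mean damage ratio with the mean repair ratio was −0.46, but it was −0.22 within the 6380 genes with an RPKM of at least 5. Between the libraries of one assay it was 0.53 for damage and 0.74 for repair. Split into 4 parts of 1595 genes by the mean repair ratio, the expressed genes had median repair ratios of 1.39, 2.91, 3.98 and 5.63 on the log2 scale. Their median damage ratios were −0.51, −0.87, −0.93 and −0.92 in Damage-seq library 1 and −0.34, −0.53, −0.55 and −0.53 in library 2. The damage ratio was thus nearest to 0 in the part with the weakest repair asymmetry, and the 3 other parts lay close together although their repair ratios did not. With parts of 1594 to 1596 genes made from XR-seq library 2 alone, an alternative chosen after the data had been seen, the same medians were −0.50, −0.83, −0.92 and −0.97 in library 1 and −0.33, −0.51, −0.56 and −0.56 in library 2.

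The 6 genes called on the same side in both assays go against the common pattern and are named after their values were seen. Cdk8, Usp35, E030030I06Rik and Unc45bos had more damage and more repair on the TS. Usp35, a deubiquitinase gene, had 106 TS and 118 NTS damage reads in library 1 and 115 and 96 in library 2, which per GG gave a log2 ratio of 0.55 (edgeR adjusted p = 0.0481). 3632454L22Rik and CT010467.1 had less of both. For 3632454L22Rik the damage reads were 85 TS and 81 NTS in library 1 and 62 and 50 in library 2, so they leaned to the TS before the division by GG, and CT010467.1 is a ribosomal RNA fragment whose reads may belong to many copies. Unc45bos lies wholly under a gene on the opposite strand. In Usp35 the reads of library 1 leaned to the NTS before the division by GG.

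**Figure D4:**
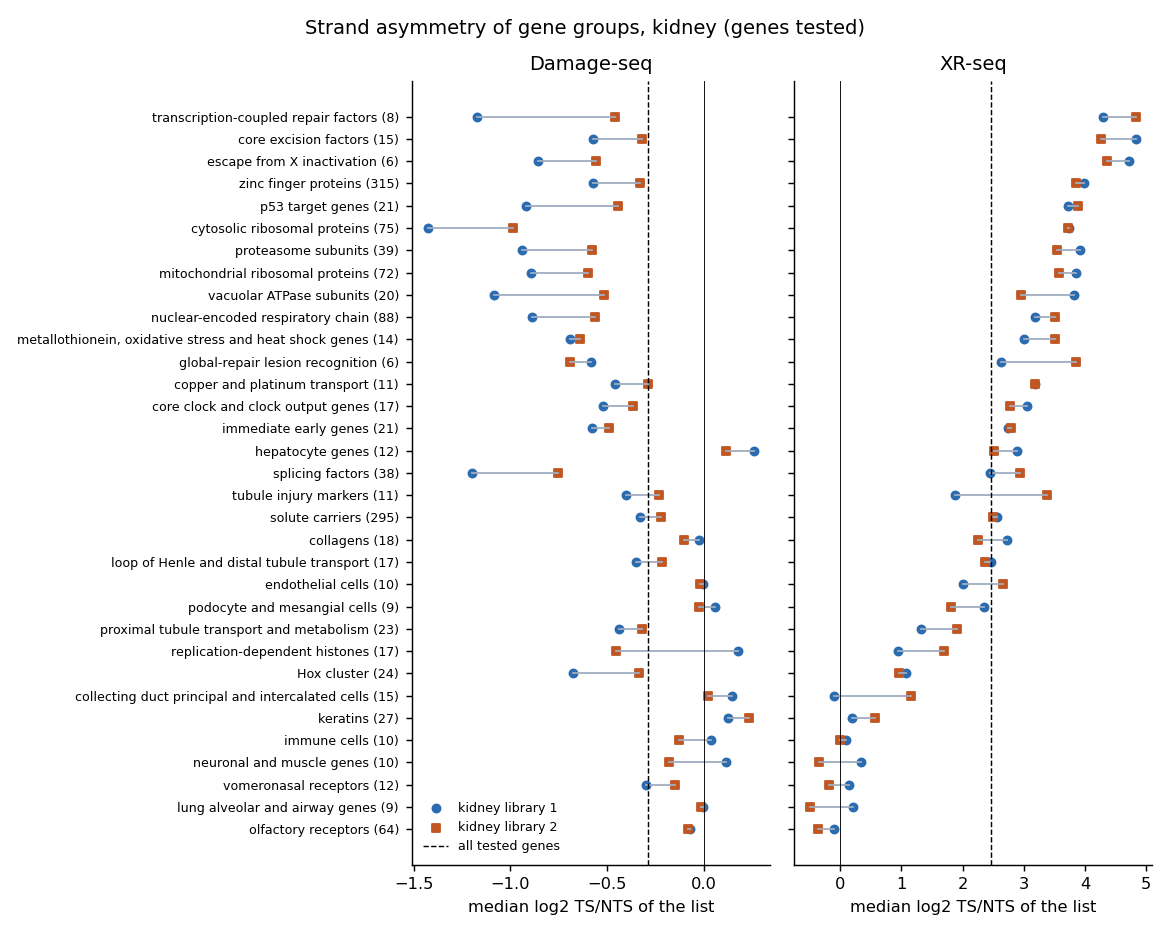
Median log2 TS/NTS per GG (x) of gene groups (y, with the number of genes compared) in kidney library 1 (blue circles) and library 2 (orange squares) of Damage-seq (left) and XR-seq (right); the dashed line is the median of all genes tested, averaged over the libraries. Transcription-coupled repair factors, core excision factors and genes that escape X inactivation lie at the top of the XR-seq panel, and lesion recognition genes lie lower. Ribosomal proteins and splicing factors lie at the far left of the Damage-seq panel. Olfactory receptors lie near 0 in Damage-seq and below 0 in XR-seq.

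Most genes that serve repair and the response to damage had more repair on the TS. All 8 factors of transcription-coupled repair had more repair on the TS, at a median log2 of 4.29 in library 1 and 4.83 in library 2 against 2.55 and 2.39 in all genes, and 6 of 8 had less damage there. The shares of all genes so called, 58.3% for repair and 22.5% for damage, stand beside each count that follows. They were higher in expressed genes, 88.8% and 43.1% at an RPKM of 5 to 20 and 87.35% and 48.6% at 20 to 100. The groups of this paragraph had a median RPKM of 4.70 (core excision factors) to 48.2 (copper and platinum transport). Uvssa had 1651 TS and 47 NTS XR-seq reads in library 1 and 2955 and 85 in library 2 (5.13 ± 0.69 SE, edgeR adjusted p = 0.00021). In Ercc6 they were 2779 and 169, then 4398 and 412 (4.04 ± 0.30), and its damage ratio was −0.60 ± 0.17 (edgeR adjusted p = 0.00452). Xab2, which binds XPA, had the smallest repair ratio of the 3 with most reads, 1.45 ± 0.31, and it partly overlaps a gene on the opposite strand. All 15 core excision factors that could be compared were called in XR-seq and 4 (26.7%) in Damage-seq. Rpa1 of the single-strand binding protein had 2252 and 73, then 2605 and 135 reads (4.60 ± 0.35), whereas Xpa, of which 41.6% lies under an opposite gene, had 0.56 ± 0.14. Of 6 genes of lesion recognition in global repair, 4 (66.7%) were called in XR-seq and 3 (50%) in Damage-seq, Xpc with a repair ratio of 4.11 ± 0.27 and a damage ratio of −0.62 ± 0.21. Each of the 21 p53 target genes, with a median RPKM of 22.6, had more repair on the TS. Less damage was called in 5 (23.8%), a share near that of all genes but below the 48.6% at an RPKM of 20 to 100. Sesn2, the stress sensor sestrin 2, had 1898 and 24, then 2783 and 180 XR-seq reads (5.04 ± 0.56) and 65 and 138, then 56 and 154 Damage-seq reads (−1.25 ± 0.23, edgeR adjusted p = 2.4e-05). Of 21 immediate early genes 19 (90.5%) were called in XR-seq and 2 (9.52%) in Damage-seq, Atf3 with 2.84 ± 0.36 and −0.40 ± 0.14. All 11 genes of copper and platinum transport were called in XR-seq and 5 (45.5%) in Damage-seq, among them Slc31a1, the copper transporter Ctr1 that also carries cisplatin, with a damage ratio of −1.14 ± 0.24 but a repair ratio of only 1.22 ± 0.21, in a gene with 26.1% under an opposite gene. Of 17 clock genes 15 (88.2%) and 8 (47.1%) were called, Per2 with 2.90 ± 0.23 in XR-seq and −0.45 ± 0.15 in Damage-seq. Of the damage calls of single genes in this paragraph, that of Sesn2 was kept without Damage-seq library 1, and those of Ercc6, Xpc, Atf3, Slc31a1 and Per2 were lost. In XR-seq the call of Xpa was lost without library 1.

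Ribosomal proteins and splicing factors had the lowest damage ratios of the groups. The 75 cytosolic ribosomal proteins had median damage ratios of −1.43 and −0.99 in the libraries, against −0.35 and −0.22 in all genes, and 20 (26.7%) were called. Rps19 had 7 TS and 72 NTS reads in library 1 and 12 and 35 in library 2 (−1.91 ± 0.49 SE, edgeR adjusted p = 0.00151). The repair ratios of the 75 were 3.73 and 3.72 in the libraries, with 61 of 75 (81.3%) called. That share was 58.3% in all genes and 79.3% at an RPKM of 100 and above. The 38 splicing factors had damage ratios of −1.20 and −0.75 with 23 (60.5%) called, Hnrnpul1 with 68 and 228, then 126 and 219 reads (−1.28 ± 0.20, edgeR adjusted p = 6.4e-07), while their repair ratios of 2.46 and 2.94 were near those of all genes. Called with less damage on the TS were also 19 of 39 proteasome subunits (48.7%), 12 of 20 subunits of the vacuolar proton pump (60%), 27 of 88 nuclear genes of the respiratory chain (30.7%) and 21 of 72 mitochondrial ribosomal proteins (29.2%). The share was 22.5% in all genes, 48.6% in those with an RPKM of 20 to 100 and 44.4% in those at 100 and above. Sdhb of respiratory complex II had 37 and 143, then 36 and 98 damage reads (−1.57 ± 0.27, edgeR adjusted p = 4.73e-06). The damage calls of Rps19, Hnrnpul1 and Sdhb were lost without Damage-seq library 1. Zinc finger proteins, 315 in all, had an RPKM of only 1.88 in the median gene but repair ratios of 3.99 and 3.85. Of them 264 (83.8%) were called on the TS side, against 58.3% of all genes and 76.3% at an RPKM of 1 to 5.

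The groups of genes that mark the segments of the nephron had lower median repair ratios than all genes of their class of expression. The 23 genes of proximal tubule transport and metabolism that could be compared had a median RPKM of 205, yet their median repair ratio was 1.32 in library 1 and 1.91 in library 2, below the 3.10 of all genes with an RPKM of 100 and above, and 8 of 23 were called (34.8% against 58.3% of all genes). In damage 8 of 23 were called (34.8%), with medians of −0.44 and −0.32. The share was 22.5% in all genes and 44.4% in those with an RPKM of 100 and above, whose damage medians were −0.99 and −0.63. Slc3a1, a subunit of the cystine transporter, had 853 TS and 150 NTS XR-seq reads in library 1 and 1682 and 377 in library 2 (2.28 ± 0.28 SE, edgeR adjusted p = 0.00012) and 98 and 210, then 74 and 128 Damage-seq reads (−1.003 ± 0.197). Slc13a3, a dicarboxylate transporter, had a repair ratio of 3.20 ± 0.48. Hnf4a, the transcription factor of the proximal tubule, had 850 and 929, then 1746 and 1500 XR-seq reads (0.10 ± 0.26, edgeR adjusted p = 0.77), but 52.8% of it lies under an antisense gene. Of 17 genes of the loop of Henle and distal tubule 8 (47.1%) were called in XR-seq and 4 (23.5%) in Damage-seq, among them Tfcp2l1, a transcription factor of distal segments (3.16 ± 0.35 and −0.72 ± 0.15). The 15 collecting duct genes had repair ratios of −0.10 and 1.16 in the libraries, with 5 called on the TS side, 2 (Fxyd4 and Hsd11b2) on the NTS side and 1, Scnn1a of the epithelial sodium channel, called in damage (−0.55 ± 0.18). In podocytes and mesangial cells 4 of 9 genes and in endothelium 6 of 10 were called in XR-seq, and the damage ratios of both groups had library medians between −0.02 and 0.06. Podxl, the podocyte sialomucin, had an RPKM of 65.9 but 359 TS and 537 NTS reads in library 1 and 734 and 693 in library 2 (−0.18 ± 0.20, edgeR adjusted p = 0.44). The damage calls of Slc3a1, Slc13a3, Tfcp2l1 and Scnn1a were lost without Damage-seq library 1, while the 1 podocyte gene called in damage, Cd2ap, kept its call.

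Groups of genes used mainly in other tissues were also counted. Over all genes, 58.3% were called with more repair on the TS, 6.19% with more on the NTS and 22.5% with less damage on the TS. More repair on the TS was called in 6.05% at an RPKM under 0.1, 33.9% at 0.1 to 1 and 76.3% at 1 to 5. Less damage on the TS was called in 0.461%, 2.42% and 20.9% of the same classes. Only 64 of 618 olfactory receptor genes had enough reads to be compared, and their repair ratios were −0.10 and −0.36 with 3 called on the TS side and 4 on the NTS side. The 12 vomeronasal receptors had repair ratios of 0.14 and −0.18 and damage ratios of −0.30 and −0.15. The 9 lung genes had repair ratios of 0.21 and −0.49 and the 10 immune genes 0.10 and 0.00. Csf1r, the macrophage receptor, had more repair on the NTS (102 and 569, then 343 and 744 reads, −1.51 ± 0.32). The 12 hepatocyte genes had repair ratios of 2.89 and 2.51, and the 18 collagens 2.73 and 2.25. The ratios of all genes were 2.55 and 2.39. Genes with an RPKM of 1 to 5, the class of the hepatocyte median of 3.10, had higher ratios of 3.32 and 3.11. Of the hepatocyte genes 3 (25%) were called on the TS side. Among them was Apob with 1002 and 0, then 909 and 34 reads (6.76 ± 1.68, edgeR adjusted p = 0.0068) and an RPKM of 29.2 in kidney. The 24 Hox genes had repair ratios of 1.07 and 0.96 and damage ratios of −0.68 and −0.33, lower than those of all genes, with 7 called on the TS side in XR-seq and 7 with less damage. Replication-dependent histones had 1 of 17 and keratins 4 of 27 called on the TS side in XR-seq. The gene groups were chosen with results of these data known, and their counts are descriptions beside those of all genes.

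Kidney was compared with the other organs gene by gene. The kidney ratio minus the mean of the ratios of liver, lung and spleen was tested in the same edgeR fit. A difference in the ratio can come from either strand, and levels of the TS alone were not compared between organs. In XR-seq the kidney ratio was higher in 353 genes (2.14%) and lower in 530 (3.21%), and in Damage-seq it was higher in 203 (1.23%) and lower in 20 (0.121%). DESeq2 called 0 of 16502 genes in Damage-seq in either direction, where edgeR had 2101 genes at an unadjusted p under 0.05. Without Damage-seq library 1 the edgeR numbers were 167 and 3 and without library 2 they were 16 and 5. For XR-seq they were 267 and 315 without library 1 and 2277 and 1893 without library 2. With the XR-seq libraries kidney 1, lung 1 and spleen 1 left out, an alternative chosen after the data had been seen, they were 1111 and 2064.

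Cdh16, which encodes the cadherin of kidney tubules, ranked first in XR-seq by the 95% limit of the difference nearest to 0 (4.62) among 112 genes and is one of 5 named in Damage-seq. Its XR-seq reads in kidney were 1583 on the TS and 197 on the NTS in library 1 and 2109 and 357 in library 2, whereas the NTS had more reads in all 6 other libraries, such as 1329 against 46 in liver 1. The log2 TS/NTS was 3.003 and 2.56 in kidney and between −5.22 and −0.68 elsewhere, a difference of 5.68 ± 0.47 (SE, edgeR adjusted p = 0.00137). The Damage-seq ratio was −0.88 and −0.52 in kidney and between −0.15 and 0.87 elsewhere, a difference of −0.94 ± 0.25 (edgeR adjusted p = 0.0234). The libraries of kidney and of the other organs did not overlap in either assay. The repair ratio in kidney was also higher for the sodium-proton exchanger Slc9a3 (1.06 and 1.34 in kidney, −3.95 to −2.59 elsewhere, difference 4.42 ± 0.46). So it was for the calcium channel Trpv6 (6.86 ± 1.47), and for Tmprss2, Svopl, Mroh3, Emx1, Fbxo40 and Ppp1r14d. Without XR-seq library 1 the calls of Emx1 and Ppp1r14d were lost, and without either Damage-seq library that of Cdh16 in damage.

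**Figure D5:**
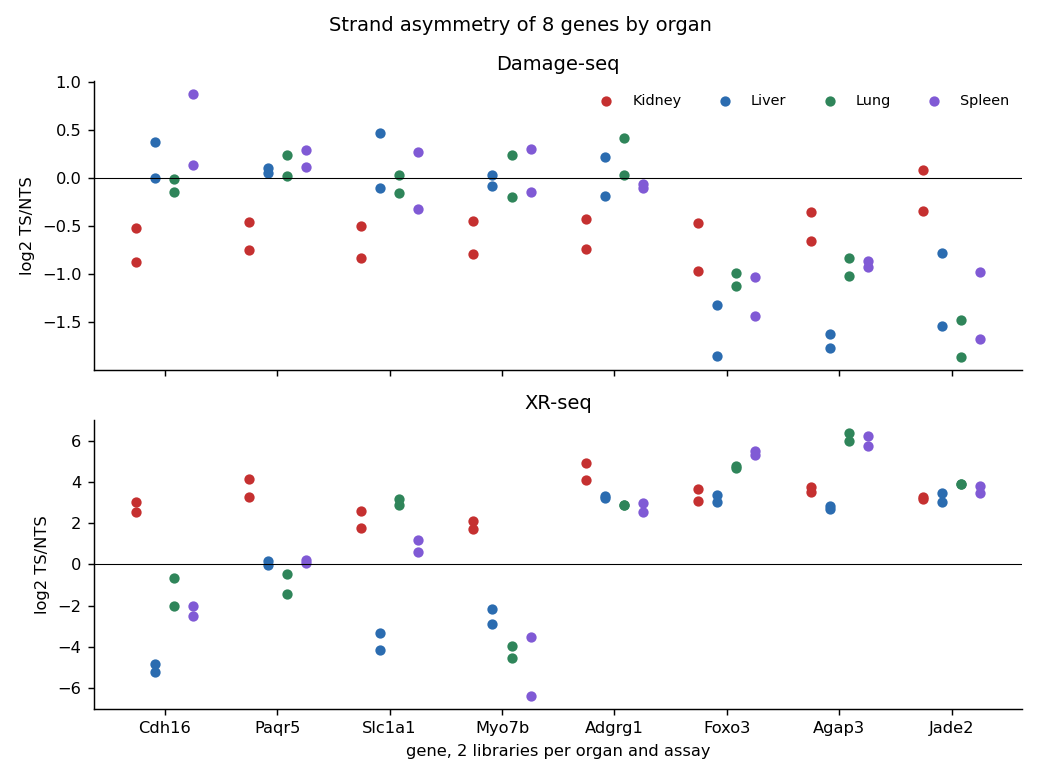
Log2 TS/NTS per GG (y) of 8 genes (x) in each of the 2 libraries of kidney (red), liver (blue), lung (green) and spleen (purple), in Damage-seq (top) and XR-seq (bottom). In Cdh16, Paqr5, Slc1a1, Myo7b and Adgrg1 the kidney points lie lowest in damage, and in Foxo3, Agap3 and Jade2 they lie highest or among the highest.

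In 6 genes kidney had both a lower damage ratio and a higher repair ratio than the other organs, a set put together after the values were seen. Beside Cdh16 these were Myo7b, a myosin of the brush border, Slc1a1, the glutamate transporter of the tubule, Paqr5, a membrane progestin receptor, Adgrg1, an adhesion receptor, and Mfsd4a. Myo7b had 1880 TS and 547 NTS XR-seq reads in kidney library 1 and 3286 and 723 in library 2, while all other libraries had ratios between −6.38 and −2.18 on the log2 scale (difference 5.62). Paqr5 had ratios of 4.15 and 3.29 in kidney and −1.43 to 0.21 elsewhere. Slc1a1 had 1.76 and 2.60 in kidney, but lung was higher with 2.90 and 3.15, so its difference rests on liver and spleen, and 28.3% of the gene lies under an opposite gene. Mfsd4a has 90.5% of its length under an opposite gene, and its kidney ratios of 0.18 and −0.47 were near equality against −4.73 to −3.79 elsewhere. The reverse, a higher damage ratio and a lower repair ratio in kidney, was seen in 33 genes, 15 of them protein-coding with no opposite gene. Foxo3, a stress-responsive transcription factor, had damage ratios of −0.97 and −0.46 in kidney and −1.86 to −0.98 elsewhere (difference 0.58) and repair ratios of 3.07 and 3.67 against 3.03 to 5.51 (difference −1.08). Its repair ratios in liver, 3.36 and 3.03, overlapped those of kidney, so this difference rests on lung and spleen. Agap3 had −0.66 and −0.35 in kidney and −1.77 to −0.84 elsewhere (difference 0.69). Its repair ratios of 3.77 and 3.50 lay above those of liver, 2.83 and 2.70, and below those of lung and spleen, so the sign of its difference rests on lung and spleen. Only 1 gene, Map3k3, had both ratios higher in kidney, and 1, Ackr4, had both lower.

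Of 112 genes that met the conditions, those ranked highest for a higher damage ratio in kidney included Jade2 and Ddx56, both near equality in kidney. Jade2, a chromatin reader, had 232 TS and 319 NTS reads in kidney library 1 and 214 and 219 in library 2, with log2 ratios of −0.35 and 0.08, while the 6 other libraries lay between −1.86 and −0.78 (difference 1.30 ± 0.20 SE, edgeR adjusted p = 1.12e-05). Ddx56, a helicase of ribosome assembly, had −0.02 and 0.04 in kidney and −3.36 to −1.08 elsewhere, with few reads (1 TS and 25 NTS in liver 1), a difference of 2.73 ± 0.55. Both genes had strong TS repair in kidney, 3.24 ± 0.17 and 5.74 ± 1.10. The kidney libraries of these genes lay above all others in damage. The set also held Slc35f6, Stom, Trim65, Tmem50a, Lgals9, Cyp2b9 and Xdh, with differences of 1.17 to 1.87. In Lgals9 the libraries overlapped, as spleen 1 (0.13) lay above both kidney libraries (−0.07 and −0.21). They also overlapped in Slc35f6 (lung 1 −0.67, kidney 1 −0.97) and in Xdh (spleen 1 −0.27, kidney 1 −0.33). Without Damage-seq library 1 the calls of Ddx56, Jade2, Slc35f6 and Xdh were kept and the other 5 lost, and without library 2 those of Jade2, Stom and Cyp2b9 were kept. Beside Cdh16 and Adgrg1, the damage ratio was lower in kidney for Spint1, a protease inhibitor of epithelia (−0.84 and −1.21 in kidney, −0.76 to 0.97 elsewhere, difference −1.29 ± 0.36). So it was for Vdr, the vitamin D receptor (−0.66 ± 0.17), and for Tnfrsf21 (−0.63 ± 0.18). For Vdr the kidney ratios of −0.98 and −0.31 overlapped those elsewhere, −0.33 to 0.31. Without Damage-seq library 1 the call of all 5 was lost, and without library 2 that of all but Vdr.

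In XR-seq the kidney ratio was lower for Slc29a3, a lysosomal nucleoside transporter, which had 2747 TS and 477 NTS reads in library 1 and 3067 and 478 in library 2, ratios of 2.44 and 2.59 against 5.45 to 6.99 elsewhere (difference −3.78 ± 0.24, edgeR adjusted p = 0.000927). Khk, the ketohexokinase of fructose metabolism, had a difference of −3.87 ± 0.71. The set also held Psd4, which ranked first, Fam198a, Rrh, Ikbip, Rgs14, Mr1 and Tmem39b, with differences of −4.40 to −3.21.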

How the data were processed

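Damage-seq, XR-seq and RNA-seq were made from whole kidneys of cisplatin-treated mice. Per the labels and the methods of the study, the authors trimmed Damage-seq and XR-seq reads with cutadapt and mapped them to mm10 by BWA. Duplicates were taken out by Picard and only reads placed at a GG were kept. The deposited values are raw read counts of each gene, with TS and NTS in separate columns. For RNA-seq, the authors used STAR and featureCounts and deposited raw counts per gene. Versions were not given in the sources used here. Neither a batch correction nor a normalization is in these counts, and duplicates cannot be checked from them.

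GG dinucleotides were counted per strand of each gene in GRCm38 with the positions of GENCODE M21. Per-library ratios are log2 of TS over NTS reads per GG with a pseudocount of 1 read. RPKM was computed from the RNA-seq counts over exon length, as the mean of both cisplatin libraries. Kept were genes shorter than 100 kb with 10 or more GG on a strand and 20 or more reads per assay. For each assay the TS and NTS columns of all 8 libraries were fitted with edgeR 4.0.16 in R 4.3.3 (quasi-likelihood test, a term for each library, a strand term for each organ, and library reads and GG as offset, with no scaling between strands). Fold changes, SE and 95% limits come from this fit. DESeq2 1.42.0 was an alternative. The fits were tested on simulated data. Python 3.11.15, numpy 2.4.6, pandas 2.3.3, scipy 1.17.1 and matplotlib 3.10.9 served for the rest.

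Genes were named by rank of the 95% limit nearest to 0 (in the direction of the median gene, against it, and between organs), or by the ratio nearest to 0 among genes with an RPKM of at least 5 in both cisplatin libraries and 200 XR-seq or 100 Damage-seq reads in each library. In each case up to 10 protein-coding genes with no gene on the opposite strand and at least 10 reads per strand were taken, and from each gene group 2 to 4 members with many reads. Some genes that met these rules are not reported here. The gene groups and the genes compared were chosen with earlier results of these data known. Samples were grouped by their titles. Counting limits cover counting error only, since the reads carry no molecular identifiers.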

Additional observations from a re-analysis of the deposited data

Results flagged for a closer look

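The differences here are log2 TS/NTS of kidney minus the mean of liver, lung and spleen, each past the threshold of edgeR's test of the difference itself. In XR-seq the 9 named genes with a higher ratio in kidney differed by 5.68 (Cdh16), 4.57 (Svopl), 6.86 (Trpv6), 4.38 (Tmprss2), 4.42 (Slc9a3), 5.56 (Mroh3), 5.37 (Emx1), 3.98 (Fbxo40) and 5.09 (Ppp1r14d). The 9 with a lower ratio differed by −4.40 (Psd4), −3.78 (Slc29a3), −3.59 (Fam198a), −4.32 (Rrh), −3.93 (Ikbip), −3.95 (Rgs14), −3.91 (Mr1), −3.21 (Tmem39b) and −3.87 (Khk). Against liver alone edgeR called 0 of all 16502 genes in XR-seq in either direction. These 18 were thus not past the threshold there either, with edgeR adjusted p of at least 0.0575. This does not show that their ratios were alike in kidney and liver. In DESeq2 against the 3 organs all 18 were past it, as were 5.19% of all genes with a higher and 9.65% with a lower ratio.

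In Damage-seq the 9 genes with a higher ratio in kidney differed by 2.73 (Ddx56), 1.87 (Slc35f6), 1.49 (Stom), 1.30 (Jade2), 1.67 (Trim65), 1.54 (Tmem50a), 1.43 (Lgals9), 1.33 (Cyp2b9) and 1.17 (Xdh). The 5 with a lower ratio differed by −1.29 (Spint1), −0.94 (Cdh16), −0.66 (Vdr), −0.63 (Tnfrsf21) and −0.63 (Adgrg1). With DESeq2, which called 0 of all 16502 genes, the calls of these 14 were lost, and the range of their adjusted p was 0.272 to 1.

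Genes with a difference in both assays are given as XR-seq and then Damage-seq. In kidney the repair ratio was higher and the damage ratio lower for Myo7b (5.62 and −0.67), Slc1a1 (2.12 and −0.70) and Adgrg1 (1.53 in XR-seq). The same held for Paqr5 (3.97 and −0.75) and Mfsd4a (3.98 and −0.77). The repair ratio was lower and the damage ratio higher for Agap3 (−1.35 and 0.69), Foxo3 (−1.08 and 0.58), Pxk (−0.96 and 0.78) and Ide (−1.26 and 0.59). So it was for Zfpm1 (−1.22 and 0.71), Cntrl (−1.05 and 1.12), Cramp1l (−0.96 and 0.78) and Ankhd1 (−1.24 and 0.79). The kidney repair ratios of Agap3, Foxo3, Zfpm1, Cramp1l and Ankhd1 lay above those of liver or overlapped them, so their differences in XR-seq rest on lung and spleen.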

How the results depend on the processing

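Genes with more damage on the TS numbered 64, and 7 with DESeq2, 560 after centring on the median gene, 13 among genes with no opposite gene, 126 with kidney libraries only and 4 to 49 with 1 kidney library. Genes with less numbered 3706, and 1089, 1375 and 2128 under the first 3 of these settings and 99 to 2814 with 1 library. The main run tested 16502 genes. Settings with other filters tested 9784 (no opposite gene), 7672 (at least 500 reads) and 18875 (any length). With no opposite gene, less damage on the TS was called in 21.7% of the genes tested, against 22.5% in the main run. Repair was higher on the TS in 9618 genes (58.3%), in 3928 (23.8%) after centring and in 5698 (58.2%) with no opposite gene. It was lower in 1021, in 3199 after centring, 313 with no opposite gene, 604 with kidney libraries only, 304 with at least 500 reads in each library and 949 to 1403 with 1 library.

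For kidney against the other organs, damage and repair stand for their TS/NTS ratios, and damage was higher in 203 genes. The number was 0 with DESeq2 (648 at an unadjusted p under 0.05, edgeR 1798), 500 with genes of any length, 118 after centring, 117 with no opposite gene, 1150, 40 and 23 against liver, lung or spleen alone, and 16 to 167 with 1 kidney library. It was lower in 20, and under the same settings in 0 (82, edgeR 303), 38, 55, 5, then 46, 2 and 6, and 3 to 5. Repair was higher in 353 genes, in 857 with DESeq2, 103 with no opposite gene, 0 (edgeR 1914 unadjusted), 5 and 92 against liver, lung or spleen alone, 1393 with counts divided by their most frequent value, 1111 without the XR-seq libraries kidney 1, lung 1 and spleen 1, and 267 to 2277 with 1 kidney library. It was lower in 530, in 1592 with DESeq2, 1203 with any length, 255 after centring, 195 with no opposite gene, 0 (edgeR 1103 unadjusted), 0 (edgeR 2557 unadjusted) and 86 against single organs, 806 with at least 500 reads, 2797 with divided counts, 2064 without the 3 libraries and 315 to 1893 with 1 kidney library. The settings of 500 reads, divided counts and 3 libraries left out were chosen after the data had been seen. As shares of the genes tested, lower repair was called in 3.21% in the main run, 10.5% at 500 reads, 6.37% at any length and 1.99% with no opposite gene. Higher repair was called in 2.14% in the main run and 1.05% with no opposite gene. Higher damage was called in 1.23%, then 2.65% at any length and 1.2% with no opposite gene.

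Genes with less damage and more repair on the TS numbered 3625, 2080 with no opposite gene and 96 to 2740 with 1 library. The reverse numbered 36, then 3 and 1 to 25, and genes called on the same side 6, then 2 and 1 to 10. The tests of the library medians kept their result at a pseudocount of 0.5, and no other setting moved a count by over 1.5 times. The cause of these changes was not tested. With replicate number as a block (replicate block) the edgeR numbers were 65 and 3764 for damage, 9430 and 1001 for repair, 252 and 23 for damage between organs and 295 and 410 for repair between organs, and the call of 4 named genes was lost. Deviations of same-numbered libraries had r between −0.0364 and 0.0422. Each deviation also holds counting error, so values near 0 cannot decide whether same-numbered libraries share an animal.

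Centring subtracts the median gene, 2.47 in XR-seq and −0.29 in Damage-seq. It turned the sign of the repair ratio of 27 named genes with a fitted ratio below that of the median gene: Slc4a11 (−2.45), Gng5 (−2.43), Aspdh (−2.42), Tmem80 (−2.39), Mcts1 (−2.38), Hnf4a (−2.37), Rtkn2 (−2.01), Eng (−1.95), Xpa (−1.91), Psmc3 (−1.67), Scnn1b (−1.60), Slc31a1 (−1.25), Zfp710 (−1.24), Mrpl33 (−1.09), Slc31a2 (−1.04), Hnrnpl (−1.03), Xab2 (−1.02), Hoxb3 (−0.84), Bbc3 (−0.59), Hoxc5 (−0.58), Hoxa3 (−0.56), Hist1h1c (−0.53), Pecam1 (−0.52), Krt80 (−0.39), Junb (−0.23), Egf (−0.21) and Slc3a1 (−0.18). The damage ratio of Ndufa10 was 0.086 without library 1 and −1.37 without library 2. Without Damage-seq or XR-seq library 1, 72 named results lost their call, without library 2 28, and with DESeq2 46. Depth limited single genes: the median gene compared had 52 TS and 75 NTS reads in Damage-seq library 1 and 50 and 63 in library 2.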
